A study of Homo sapiens with 40 samples.

Results

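Caspase-10, the proteins it works with and the death receptors above it were followed as 9 genes: the receptors FAS, TNFRSF10A and TNFRSF10B, the adaptor FADD, the initiator caspases CASP10, CASP8 and CASP9, the regulator CFLAR and the substrate BCLAF1. Probes of the members were found by gene symbol, and 29 of the 15246 probes on the array carry one of these symbols in the platform's probe annotation: 6 for CASP10, 5 for BCLAF1, 4 each for CASP9 and FAS, 3 for CASP8, 2 each for CFLAR, FADD and TNFRSF10B, and 1 for TNFRSF10A. The probes of a gene are numbered from 1 in the order of their platform IDs. Probes of one symbol were averaged, which left 9681 features, of which 4604 are named genes.

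The study knocked down CASP10 with retroviral short hairpin RNAs switched on by doxycycline at 20 ng/ml, in puromycin-selected human myeloma lines and in lymphoma lines as controls. On each 2-colour array, 50 µg of RNA from induced cells was labelled with Cy5 and 50 µg from the comparison cells with Cy3, so every value is a ratio of 2 cell populations and no array gives the level of a gene. Except in the control-hairpin group, the comparison was the same transduced line left uninduced.

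The myeloma groups were SKMM1 with shCasp10-2 (12 arrays in 3 biological repeats), H929 with shCasp10-3 (4 arrays) and with shCasp10-2 (8 arrays in 2 biological repeats), and KMS12 with shCasp10-3 and with shCasp10-2 (4 arrays each). The lymphoma groups were OCI-Ly7 and OCI-Ly19 with shCasp10-2 (2 arrays each, days 3 and 4). A further 4 arrays, on days 1 to 4, set induced SKMM1 cells with shCasp10-2 against induced SKMM1 cells with a control hairpin. The 32 myeloma arrays against uninduced cells span days 1 to 5 and form 8 time courses. Days 1 and 5 of SKMM1 and of H929 with shCasp10-2 were placed in repeats by runs of array numbers. For SKMM1 day 5 this departs from the titles. The array placed in repeat 2 is titled day 5 repeat 1, and that placed in repeat 3 is titled day 5 repeat 2. Only the H929 and SKMM1 repeats are named as biological repeats, and nothing says that other courses came from separate cultures. The p-values from course means thus measure the spread between these courses, which may be technical. Those from fits of single arrays also draw on the spread between days of a course.

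Death receptors of the tumour necrosis factor receptor family carry an intracellular death domain. Once FAS ligand or TRAIL binds, the receptor recruits FADD, whose death effector domain gathers procaspase-8, procaspase-10 and the products of CFLAR (cFLIP) into a signalling complex where the caspases are activated. CFLAR encodes catalytically inactive relatives of caspase-8 that pair with these caspases and set how far they are processed. Caspase-10 is described in myeloma as acting with the long form of cFLIP to cleave BCLAF1, a nuclear protein that binds BCL2. Caspase-9 is the initiator of the separate mitochondrial route. In the RefSeq gene table CFLAR, CASP10 and CASP8 are direct neighbours on chromosome 2.

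The deposited values are taken here as log2 of Cy5 over Cy3; neither the base nor the direction is stated in the sources used here, and all arrays ran in one dye orientation, so any dye effect is part of every value. On 12 of the 40 arrays more than 10% of all probes lay beyond ±3. These are called wide arrays here and the others narrower. The wide ones are all 4 of SKMM1 repeat 2, day 4 of SKMM1 repeat 3, days 1 and 2 of H929 repeat 1, days 2 and 3 of H929 shCasp10-3, days 1 and 2 of KMS12 shCasp10-2, and day 3 of the arrays labelled OCI-Ly7. Array medians ran from -2.145 to 0.36. The arrays of SKMM1 repeats 2 and 3 opposed each other (lowest correlation between 2 arrays over all probes -0.517, and 87 of 780 array pairs under -0.3). The labels give the same dyes for both repeats, so the values were kept as deposited, and results with a repeat turned are given in the closing section. Since the values are ratios, the lines could not be checked against marker levels, and a smaller share of expressing cells cannot be told apart from less RNA per cell.

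CASP10, the target of both hairpins, was the member most often below 0 in the myeloma lines. Its gene mean was below 0 on 29 of 32 myeloma arrays against uninduced cells, a count reached by 1.16% of all features, and on 19 of the 21 arrays that were not wide. It lay below the median of its own array on 30 of 32 arrays, among them all 11 wide ones, at a median percentile of 26.2 among the features of an array. On the 21 narrower arrays the gene mean ran from -0.89 to 0.13 with a median of -0.30. The 3 arrays above 0 were a wide one of SKMM1 repeat 3 on day 4 (0.35), one of H929 repeat 2 on day 2 (0.13) and one of H929 with shCasp10-3 on day 4 (0.03).

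In SKMM1 repeat 1 the log2 ratio of CASP10 was -0.89, -0.51, -0.25 and -0.32 on days 1 to 4. In SKMM1 repeat 2 it was -2.82, -1.19, -0.84 and -0.90 on days 2 to 5, all on wide arrays, and in repeat 3 it was -0.02, -0.30, 0.35 and -0.17. Repeats 1 and 2 were thus below 0 throughout and repeat 3 lay around 0. In H929 repeat 1 CASP10 was at -5.60, -3.56, -0.38 and -0.32 on days 1 to 4, and in repeat 2 at 0.13, -0.20, -0.18 and -0.16 on days 2 to 5. The H929 values of -5.60 and -3.56 come from wide arrays, and the 2 narrower arrays of that repeat resemble the other courses. In KMS12 all 8 arrays were below 0, as were 9.47% of features.

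**Figure D1:**
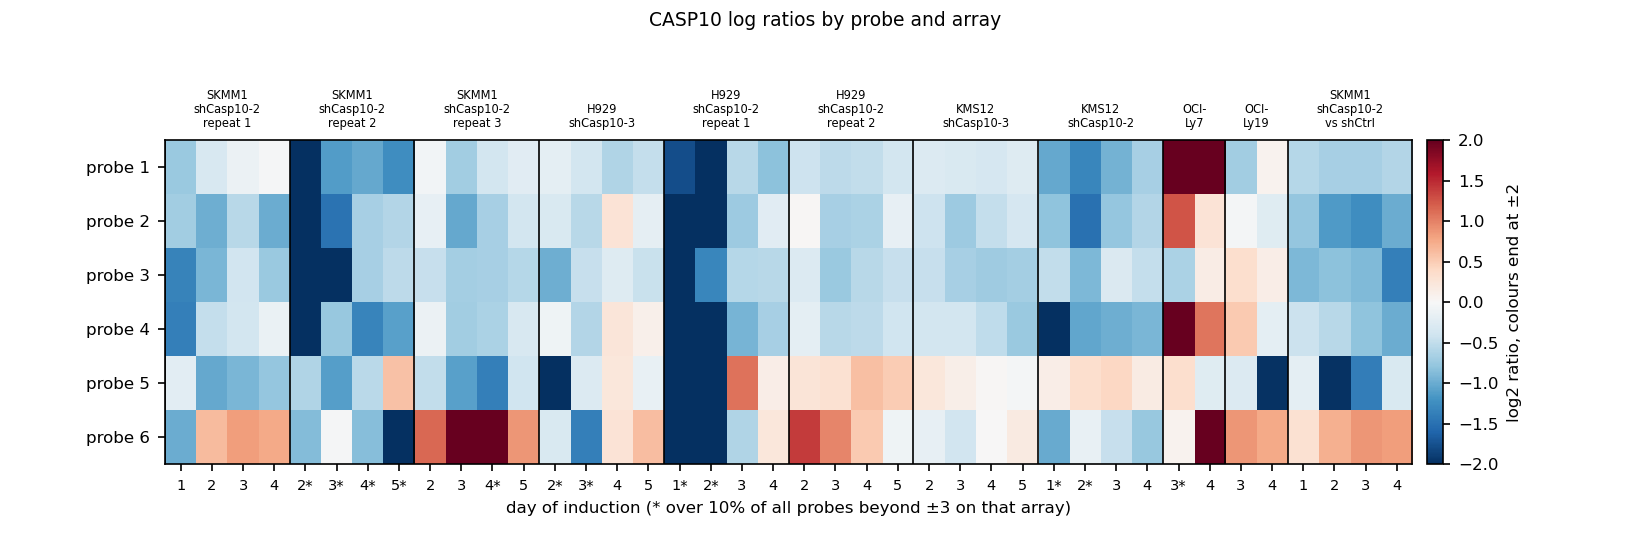
Log2 ratio of each CASP10 probe (rows) on every array (columns, grouped by time course and ordered by day of induction), with colours ending at ±2 and wide arrays starred. Probes 3 and 1 are below 0 on all 32 myeloma arrays, while probe 6 is above 0 on 15 of them and on all 4 arrays against the control hairpin.

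The 6 CASP10 probes did not move together. Probes 3 and 1 were below 0 on all 32 myeloma arrays, and probes 2 and 4 were below 0 on 30. Of the 9681 features, in which the probes of a gene are averaged, 4 (0.0413%) were below 0 on all 32. The share among single probes is not given here, so that figure is no measure of how rare such a probe is. On the narrower arrays probes 3, 1, 2 and 4 averaged -0.58 ± 0.24, -0.44 ± 0.25, -0.50 ± 0.34 and -0.49 ± 0.38 in that order (SD, n = 21 arrays). Probe 5 was below 0 on 17 arrays and above 0 on 15, and probe 6 had the same split, with averages of -0.05 ± 0.56 and 0.35 ± 0.80 on the narrower arrays. Across those 21 arrays the correlation between pairs of CASP10 probes ranged from -0.56 to 0.55 over 15 pairs (these points share arrays and time courses). The gene mean therefore understates the ratio read by the 4 concordant probes and depends on which probes enter it.

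The discordant probes passed a test in SKMM1. Probe 6 rose in SKMM1 and probe 5 fell there. The fit used single arrays, with every probe as its own feature and the wide arrays left out, a setting chosen after seeing the data. There limma gave 1.19 ± 0.29 (SE, adjusted p = 0.0248) and -0.85 ± 0.16 (adjusted p = 0.0175). In the same fit probes 3 and 2 fell in SKMM1 (-0.63 ± 0.12, adjusted p = 0.018, and -0.73 ± 0.19, adjusted p = 0.0298), while 12.4% of the 15246 probes were called there. With each of 7 courses left out in turn, the SKMM1 estimate of probe 6 ran from 0.74 to 1.76 (limma, adjusted p from 0.0146 to 0.2). Its call was lost without SKMM1 repeat 3 or KMS12 shCasp10-3, and that of probe 2 without SKMM1 repeat 1, SKMM1 repeat 3 or KMS12 shCasp10-3. The calls of probes 3 and 5 were kept in all 7. In KMS12 the estimates were 0.20 ± 0.16 for probe 5 and -0.37 ± 0.29 for probe 6 (SE), neither past the threshold, and the difference between lines was not tested for single probes here. From course means with all arrays kept, none of the 29 member probes was called over the 3 lines or within a line.

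CASP10 passed a test of this single gene over courses, and was not called from course means in the fit across all features. The course means over days 2 to 4 averaged -0.63 ± 0.59 (SD, n = 8 courses, 7 below 0), and an exact two-sided sign-flip test of this single gene gave p = 0.0156, where the smallest p this design allows is 0.00781. Without the wide arrays they averaged -0.25 ± 0.19 (SD, n = 7 courses, 6 below 0; exact two-sided sign-flip p = 0.0312, the smallest possible being 0.0156). These tests are against 0, not against the other features. With all arrays the median of all features was below 0 in most courses, from -1.02 (SKMM1 repeat 2) to 0.31 (SKMM1 repeat 3). The share of features that would pass the same test is not given here. In the fit across all features, with the 3 lines weighted equally, CASP10 stood at -0.61 ± 0.24 (SE; 95% interval -1.18 to -0.04; limma, adjusted p = 0.682). That fit called 0 of 9681 features (0%), with 467 at an unadjusted p under 0.05, so none of the 9 members was called either.

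Without the wide arrays, and with single arrays of days 2 to 4 fitted with the course as a random block, CASP10 fell by 0.28 (estimate -0.28 ± 0.061 SE; 95% interval -0.41 to -0.15; limma, adjusted p = 0.0254; 16 arrays). CASP10 was the 1 member of 9 called in that fit, beside a background of 4.57% of all features (442 features, 303 of them lower). Its estimate stayed between -0.32 and -0.24 when each of the 7 remaining courses was left out in turn, with adjusted p from 0.0167 to 0.153. The call was lost without SKMM1 repeat 1 (0.0589), H929 repeat 1 (0.0897), KMS12 shCasp10-2 (0.111) or KMS12 shCasp10-3 (0.153), and with the sign of SKMM1 repeat 3 turned (0.377). With course means in place of single arrays the estimate was -0.27 and was not called (limma, adjusted p = 0.272). With single arrays and the wide arrays kept, 0 features were called (limma; 854 at an unadjusted p under 0.05), so of these 4 fits only the one with both changes called CASP10.

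**Figure D2:**
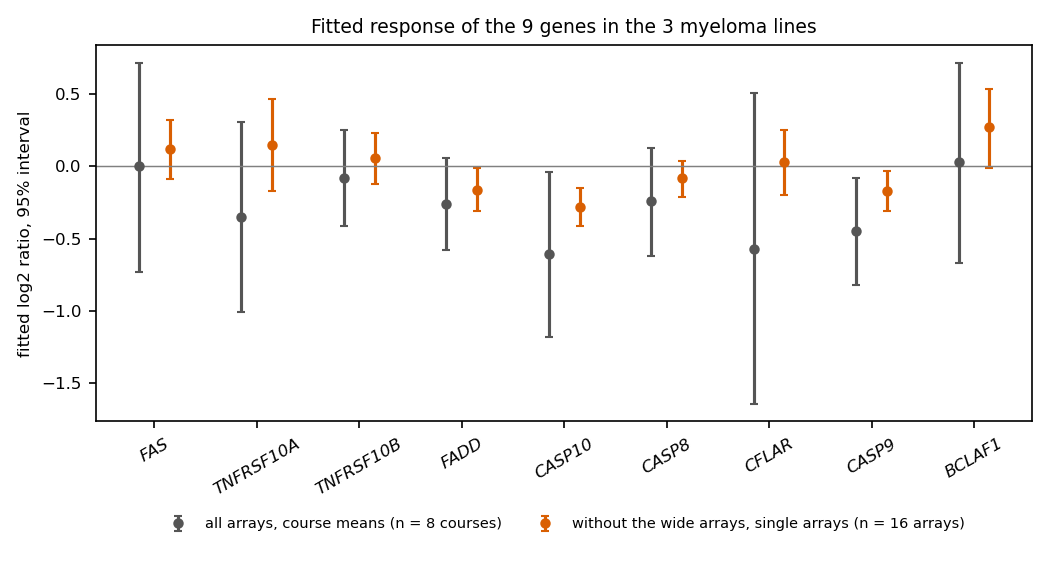
Fitted log2 ratio of induced over uninduced cells for the 9 genes in the 3 myeloma lines, with 95% intervals, from course means of all arrays (grey, 8 courses) and from single arrays without the wide ones (orange, 16 arrays). CASP10 is at -0.61 and -0.28, and its second interval ends at -0.15.

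Read probe by probe in the fit without the wide arrays, 7 of the 29 member probes passed the threshold, 5 lower and 2 higher, where 5.84% of all probes did. The 5 lower ones were the 4 concordant CASP10 probes, with estimates between -0.54 and -0.45, and CASP9 probe 3 at -0.32 ± 0.075 (SE; limma, adjusted p = 0.027). The 2 higher ones were BCLAF1 probe 3 at 0.42 ± 0.11 (adjusted p = 0.04) and TNFRSF10B probe 1 at 0.29 ± 0.081 (adjusted p = 0.048). Of these 7 calls, that of CASP10 probe 3 (-0.54 ± 0.068) was the one kept whichever of the 7 courses was left out. The call was kept in 5 of the 7 fits for CASP10 probe 1, in 4 each for probes 2 and 4, in 3 for the CASP9 probe, in 2 for the BCLAF1 probe and in 1 for the TNFRSF10B probe. All 6 of these were lost without H929 repeat 1 and also without KMS12 shCasp10-2, and all but that of CASP10 probe 1 without KMS12 shCasp10-3. The CASP9, BCLAF1 and TNFRSF10B calls were lost without SKMM1 repeat 1 too, the BCLAF1 and TNFRSF10B calls without H929 repeat 2, and the TNFRSF10B call without H929 shCasp10-3.

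FAS, the receptor of FAS ligand, kept one sign in KMS12 and not in the other lines. In KMS12 it was above 0 on all 8 arrays, where 2.44% of features were. With shCasp10-3 its ratio was 0.24, 0.20, 0.22 and 0.10 (days 2 to 5), and for shCasp10-2 it was 0.21, 0.11, 0.20 and 0.18 (days 1 to 4). In SKMM1 the repeats opposed each other, at -0.09, -0.09, -0.29 and -0.23 in repeat 1, -3.22, -0.67, -0.38 and -0.17 in repeat 2, and 0.05, 1.08, 3.10 and 0.45 in repeat 3. The values of repeat 2 and the 3.10 came from wide arrays, and behind the 3.10 probe 3 read 7.56 and the others 1.20 to 2.06. On the narrower arrays the 4 FAS probes agreed, with correlations between 0.33 and 0.74 over 6 pairs. In H929 FAS ran from -1.19 to 0.28 with a median of -0.07. The mean response over the 3 lines was 0.00 ± 0.30 (SE) with all arrays and 0.12 without the wide ones, neither called.

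The TRAIL receptors TNFRSF10A and TNFRSF10B showed no shared direction. TNFRSF10A, read by 1 probe, was at 0.67, 2.27, -0.37 and 2.78 in SKMM1 repeat 3 on days 2 to 5 and at -5.50 and -5.32 on the 2 wide arrays of H929 repeat 1. On the other H929 arrays it lay between -0.49 and 0.09. Its fitted SKMM1 response without the wide arrays was 0.87 ± 0.28 from course means (SE; limma, adjusted p = 0.172), so the large values of repeat 3 did not pass the test. TNFRSF10B stayed between -0.58 and 0.43 on the narrower arrays as a gene mean. Its 2 probes differed, with probe 1 above 0 on 16 of 21 narrower arrays (mean 0.29 ± 0.32 SD) and probe 2 below 0 on 15 of them (mean -0.19 ± 0.26 SD). Probe 1 was also called in SKMM1 in the probe-by-probe fit of single arrays without the wide ones (0.47 ± 0.15 SE; limma, adjusted p = 0.0474). That call was kept in 2 of the 7 fits with a course left out.

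**Figure D3:**
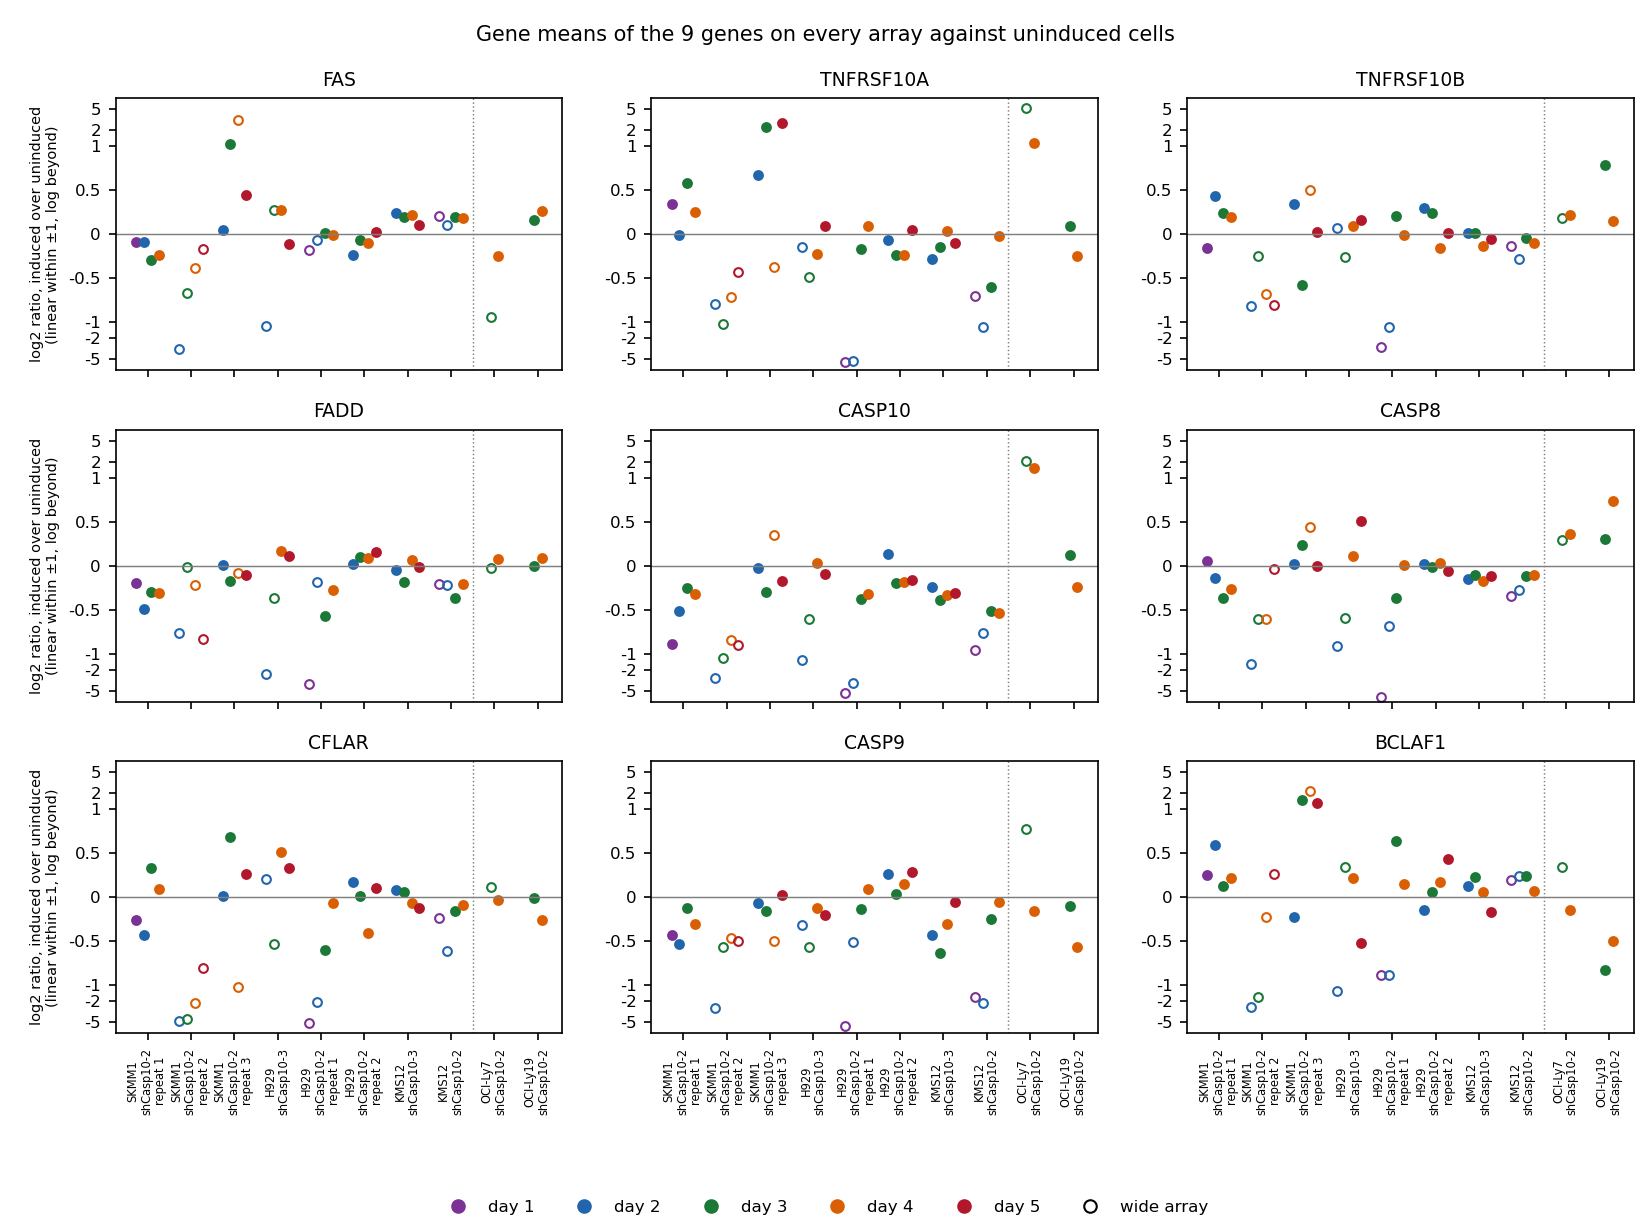
Gene mean log2 ratio of induced over uninduced cells (y axis, linear within ±1 and logarithmic beyond) on each array for the 9 genes, by time course, with days in colour, wide arrays as open circles and the lymphoma lines right of the dotted line. CASP10 is below 0 on 29 of 32 myeloma arrays and at 2.04 and 1.50 on the arrays labelled OCI-Ly7, and FAS is above 0 on all 8 KMS12 arrays.

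FADD, the adaptor between receptor and caspase, was below 0 on 11 of 12 SKMM1 arrays, as CASP10 and CASP9 were, and 3.32% of features reached that count. In SKMM1 repeat 1 FADD was at -0.20, -0.49, -0.30 and -0.31. It was below 0 on 7 of 8 KMS12 arrays (-0.36 to 0.07), and in H929 it split 6 to 6, with -3.72 and -2.36 on wide arrays. Its response without the wide arrays was -0.16 ± 0.07 (SE; limma, adjusted p = 0.203). The 2 FADD probes did not track each other (correlation -0.07 over 21 arrays). Probe 2 was below 0 on 16 of 21 narrower arrays (mean -0.19) and probe 1 on 12 (mean -0.04), while the lowest reading on these arrays came from probe 1 (-0.84).

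CASP8, the caspase nearest to CASP10 in sequence and position, was below 0 on all 8 KMS12 arrays, as were 9.47% of features, though by little. The medians of all 8 arrays were below 0 too (-0.289 to -0.004), and CASP8 stood at percentiles 30.1 to 55.1 of their features. The values were -0.15, -0.11, -0.17 and -0.12 with shCasp10-3 and -0.34, -0.27, -0.12 and -0.10 with shCasp10-2. In SKMM1 CASP8 was below 0 on 7 of 12 arrays and in H929 on 7 of 12, so it did not keep a direction there. The fitted response without the wide arrays was -0.08 with a 95% interval of -0.21 to 0.04 and was not called. With all arrays it was -0.24 ± 0.15 (SE; 95% interval -0.62 to 0.13; limma, adjusted p = 0.682). Across the 21 narrower arrays the correlation with CASP10 was 0.22 for CASP8, which ranked 989 of 4603 named genes, and 0.36 for CFLAR, which ranked 359.

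CFLAR carried its largest values on wide arrays. It was at -4.72, -4.25, -2.13 and -0.80 in SKMM1 repeat 2 and at -5.04 and -2.02 on days 1 and 2 of H929 repeat 1, and on the narrower arrays it lay between -0.60 and 0.68 with a median of 0.02. Accordingly the fitted response was -0.57 ± 0.45 (SE) with all arrays and 0.03 without the wide ones. Its 2 probes were nearly unrelated (correlation 0.05 over 21 arrays), and the isoforms of cFLIP cannot be separated with these probes because the annotation names only the gene.

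CASP9, the initiator of the mitochondrial route, was below 0 on 26 of 32 myeloma arrays (5.60% of features on as many), on 15 of the 21 narrower ones (17.0%) and on all 8 KMS12 arrays (9.47%). KMS12 values were -0.43, -0.63, -0.30 and -0.05 with shCasp10-3 and -1.66, -2.13, -0.25 and -0.05 with shCasp10-2. The SKMM1 arrays ran from -2.72 to 0.03 and 11 of 12 were below 0, whereas the 4 arrays of H929 repeat 2 were all above 0 (0.27, 0.04, 0.15 and 0.29). As a gene mean CASP9 was at -0.45 ± 0.15 (SE; adjusted p = 0.682) with all arrays and at -0.17 ± 0.064 (adjusted p = 0.137) without the wide ones, both from limma. On the narrower arrays CASP9 probes 1 and 3 averaged -0.28 and -0.26, and probes 2 and 4 averaged -0.02 and 0.01. Probe 2 gave the lowest of the 4 values on several wide arrays. The gap was largest on 3 of them, where the other 3 probes lay between -2.65 and -0.12. There probe 2 read -3.30 and -6.24 on days 1 and 2 of KMS12 with shCasp10-2 and -6.24 on day 2 of SKMM1 repeat 2.

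BCLAF1, the nuclear protein named as a caspase-10 substrate, was the member most often above 0. It was above 0 on 22 of 32 myeloma arrays, as were 5.01% of features, and on 17 of the 21 narrower ones, as were 6.42%. In SKMM1 repeat 1 it was at 0.25, 0.59, 0.13 and 0.22, and in repeat 3 at -0.22, 1.51, 2.21 and 1.30, while in repeat 2 it was at -2.59, -1.67, -0.22 and 0.26. The 5 probes agreed better than those of any other member with several pairs of probes (median correlation 0.75 over 10 pairs). Without the wide arrays all 7 course means were above 0 (0.03 to 0.64), as were those of 2.53% of features, with a fitted response of 0.27 ± 0.13 (SE; limma, adjusted p = 0.244). With all arrays 5 of 8 course means were above 0, the lowest being -1.49 in SKMM1 repeat 2, and the fitted response was 0.03 ± 0.29 (SE; limma, adjusted p = 0.965). This measures BCLAF1 RNA and says nothing of the cleaved protein.

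The difference between the 3 myeloma lines was tested directly, and limma called 0 of 9681 features both from course means of all arrays and from single arrays without the wide ones. The responses of CASP10 from course means were -0.66 ± 0.38 in SKMM1, -0.71 ± 0.38 in H929 and -0.46 ± 0.47 in KMS12 (SE). Between any 2 of these lines the CASP10 estimates differed by less than the standard error of the difference. From single arrays without the wide ones the CASP10 response was -0.27 in SKMM1, -0.15 in H929 and -0.41 in KMS12, none called, while 11.7% of all features were called in SKMM1 and 0% in H929 and KMS12.

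Both hairpins were used in H929 and KMS12, where their responses were compared. In KMS12 CASP10 was at -0.24, -0.39 and -0.33 on days 2 to 4 with shCasp10-3, against -0.76, -0.51 and -0.54 with shCasp10-2, with 1 course each, the -0.76 being from a wide array. In H929 it was at -1.31, -0.60 and 0.03 with shCasp10-3, against -3.56, -0.38 and -0.32 in repeat 1 and 0.13, -0.20 and -0.18 in repeat 2 with shCasp10-2, and these overlapped. Over both lines shCasp10-3 minus shCasp10-2 was 0.20 for CASP10, with a 95% interval of -1.84 to 2.24 (limma, adjusted p = 1). None of the 9681 features was called (279 at an unadjusted p under 0.05). An interval of this width does not show that the hairpins act alike.

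In the lymphoma lines CASP10 went against the label of the knockdown in 1 line. The OCI-Ly19 arrays had CASP10 at 0.12 and -0.24, and the arrays labelled OCI-Ly7 had it at 2.04 on day 3, a wide array, and 1.50 on day 4. Those 2 OCI-Ly7 arrays leaned upward as a whole, with 13.177% and 7.95% of all probes above 3 and 0.112% and 0.013% below -3. CASP10 stood at percentiles 82.1 and 86.6 of their features. On day 4, which was not wide, probe 1 read 4.75, probe 6 read 2.99 and probe 4 read 1.07 there, while probe 3 read 0.15 and probe 5 read -0.25. The 2 probes that were below 0 on every myeloma array thus differed on these arrays. The myeloma mean of days 3 and 4 was -0.38 ± 0.14 and the lymphoma mean 0.85 ± 0.27 (SE). The difference, which runs lymphoma minus myeloma, was 1.24 with a 95% interval of 0.50 to 1.97 (limma, adjusted p = 0.284), and 1.02 without the wide arrays (adjusted p = 0.0597). With all arrays 0 of 9681 features were called, with the wide arrays left out 206 were (2.13%), and no member was among them in either fit.

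The lymphoma values of other members were compared with the myeloma arrays. CASP8 was below 0 on all 8 KMS12 arrays and above 0 on all 4 lymphoma arrays (0.29 and 0.36 on those labelled OCI-Ly7, 0.30 and 0.73 in OCI-Ly19). TNFRSF10B was also above 0 on all 4 (0.19 and 0.22 on those labelled OCI-Ly7, 0.79 and 0.15 in OCI-Ly19). Of all features 26.9% were above 0 on all 4 lymphoma arrays, and 9.47% were below 0 on all 8 KMS12 arrays. BCLAF1 was at -0.82 and -0.49 in OCI-Ly19, where the lowest narrower myeloma array had -0.52. TNFRSF10A was at 5.34 and 1.15 on the arrays labelled OCI-Ly7 (percentiles 95.1 and 84.0 of features) and at 0.09 and -0.25 in OCI-Ly19. Each lymphoma line has 1 course of 2 arrays, so these values carry no replicate check within a line.

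On the control-hairpin arrays both channels came from doxycycline-induced cells that expressed a hairpin. CASP10 was at -0.43, -0.74, -0.68 and -0.57 on days 1 to 4, and on average at -0.61 ± 0.14 (SD, n = 4 arrays of 1 course), where SKMM1 repeat 1 against uninduced cells averaged -0.49 ± 0.29. Below 0 on all 4 of these arrays were CASP10, CASP8, FADD, CASP9 and FAS, a count shared by 22.5% of features, and above 0 on all 4 were BCLAF1, TNFRSF10A and TNFRSF10B, as were 28% of features. FADD was at -0.31, -0.56, -0.64 and -0.56, and FAS at -0.28, -0.35, -0.49 and -0.64. BCLAF1 was at 0.48, 0.65, 0.45 and 0.03. These 8 genes took the sign that their mean had in SKMM1 repeat 1, and the arrays may share induced cells with that repeat, which the labels do not say. With 1 course there is no test.

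Probe by probe, 5 of the 6 CASP10 probes were below 0 on all 4 control-hairpin arrays, with means from -1.04 to -0.62, and probe 6 was above 0 on all 4 (0.31 to 0.88). Probe 5, mixed elsewhere, ran from -1.98 to -0.20. TNFRSF10B again came from probe 1 (0.58 to 0.74), with probe 2 between -0.22 and 0.28. For FADD both probes were below 0 on all 4 arrays, probe 1 at a mean of -0.81 and probe 2 at -0.22.

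**Figure D4:**
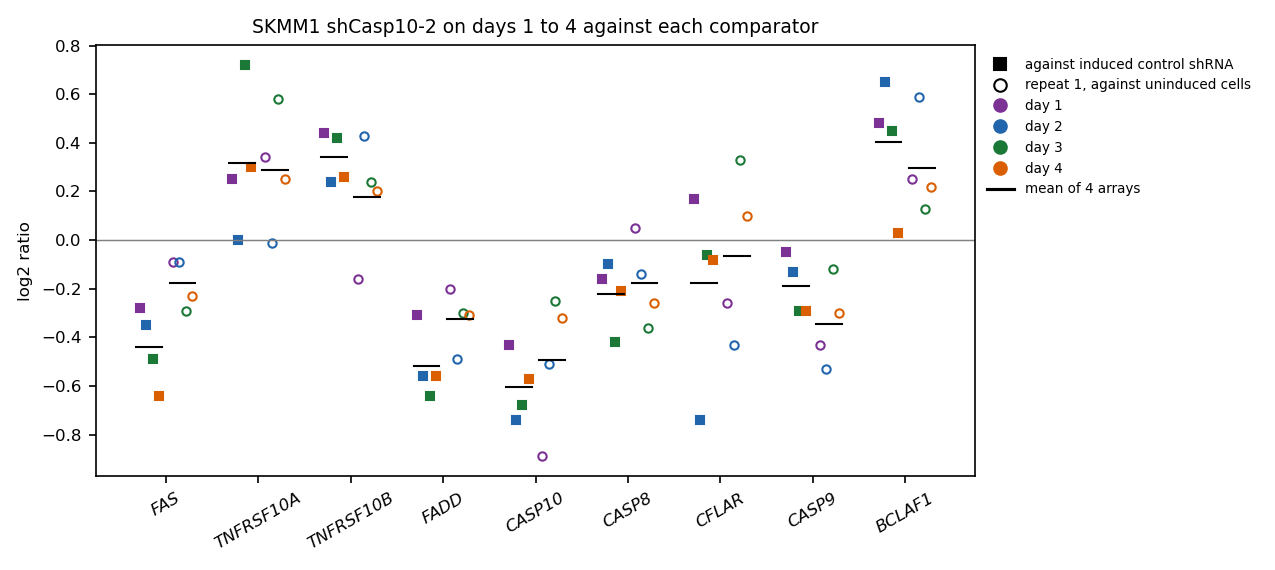
Log2 ratio of each gene in SKMM1 with shCasp10-2 on days 1 to 4, against induced control-hairpin cells (filled squares) and against uninduced cells in repeat 1 (open circles), with bars at the mean of 4 arrays. CASP10 averages -0.61 and -0.49, and FADD, CASP9 and FAS are below 0 on all arrays of both sets.

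Time of induction gave no called change. From all arrays, CASP10 on day 4 minus day 2 was 0.87 (95% interval -0.23 to 1.97; limma, adjusted p = 0.547), and without the wide arrays it was -0.18 (adjusted p = 0.829), so the direction turned with the wide arrays. In SKMM1 repeat 1 CASP10 was at -0.32 on day 4 and -0.51 on day 2, in H929 repeat 2 at -0.18 and 0.13, and in KMS12 shCasp10-3 at -0.33 and -0.24, these being courses with both days narrow. Across all features 0 were called in either fit.

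Genes were ranked by Pearson r with CASP10 over the 21 narrower myeloma arrays, array medians subtracted. Highest were UGT2B7 (a glucuronosyltransferase, r = 0.69), STX3 (a syntaxin of membrane fusion, 0.69) and METTL14 (a subunit of the RNA m6A methyltransferase, 0.67). CDK2AP1 (0.65) and LIMK1 (a kinase of the actin cytoskeleton, 0.65) followed. Spearman correlations were 0.57, 0.75, 0.51, 0.66 and 0.75 in that order. UGT2B7, STX3 and METTL14 have 1 probe each, and UGT2B7 was below 0 on 7 of the 21 arrays. These correlations describe 21 arrays of 7 courses, which share cultures. Among 4603 other named genes FADD ranked 16 (r = 0.58) and CASP9 ranked 40 (0.54), while BCLAF1 stood near the other end at 4489 (-0.46). CDK2AP1 and LIMK1 were each below 0 on 19 of the 21 arrays, as CASP10 was.

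Lists of other genes of the same routes were read in the fit of single arrays without the wide ones, over the 3 myeloma lines. Of 24 listed death receptor ligands, decoys and adaptors 16 were measured, and 1 was called, beside 4.57% of all features. It was DAXX, a FAS-binding nuclear protein, which fell by 0.24 (SE 0.056, limma, adjusted p = 0.0295). With KMS12 shCasp10-2 left out as well no feature was called, so the DAXX call was lost there. CRADD, a death-domain adaptor of caspase-2, was next at -0.23 (adjusted p = 0.0511). None of the 6 measured other caspases and partners was called, with CASP4 at 0.19 and CASP2 at 0.58. None of the 9 measured genes of the apoptosome and its inhibitors was called either, nor of the 5 measured caspase substrates, in which PARP1 stood at -0.18 (limma, adjusted p = 0.0828). Within SKMM1, where 11.7% of all features were called, 5 genes of these lists were called (limma, adjusted p from 0.0223 to 0.0461). RIPK3, a kinase of necroptosis, TNFAIP3, an inhibitor of NF-kappaB signalling, and CASP2 were higher there at 0.71, 0.91 and 1.82, and CRADD and PARP1 were lower at -0.37 and -0.42. Within H929 or KMS12 no feature at all was called in this fit, so the missing calls there say nothing particular about these genes.

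The medians of these 4 lists were -0.02, 0.17, 0.04 and -0.16, and that of the 9 members 0.03, beside 0.01 over all features. Among marker lists of cell types, none of 8 plasma cell, 5 mature B cell and 3 myeloid genes was called, with medians of -0.07, -0.01 and -0.14. All 7 measured T and NK cell markers were below 0 (median -0.24), where 47.7% of all features were. Of these markers 1, NKG7, was called and fell by 0.43 (limma, adjusted p = 0.0374). The NKG7 call was lost, as that of DAXX was, in the fit with a course left out that called no feature. In KMS12 the T and NK cell, mature B cell, myeloid and plasma cell lists had medians of -0.54, -0.52, -0.43 and -0.09, beside -0.10 over all features. No marker was called there, nor was any other feature. The same 4 medians were -0.32, 0.42, 0.19 and -0.06 in SKMM1, beside 0.14, where CD3E was called at -0.43 and PAX5 at 1.22 (limma, adjusted p = 0.0436 and 0.0486). In H929 they were 0.01, -0.08, -0.11 and -0.09, beside -0.04, and again neither a marker nor any other feature was called. Their part in the result for CASP10 was not tested.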

How the data were processed

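RNA of induced and comparison cells was set against each other on 40 2-colour lymphochip arrays (Cy5 induced, Cy3 comparison, per the labels). The authors deposited 1 log ratio per probe and array, read here as log2; the sources used here do not state normalization, log base or background correction, no signal strength was used, and the number of arrays limits the precision. Of 15246 probes 10169 have 1 symbol in the platform annotation, 4 several and 5073 none; 10128 matched the RefSeq gene table (GRCh38.p14). Probes of a symbol were averaged. The replicate is a time course, averaged over days 2 to 4. Days 1 and 5 were assigned to repeats partly by runs of array numbers, for SKMM1 day 5 against the repeat numbers in the titles. limma 3.58.1 (R 4.3.3; lmFit, eBayes) tested course means over all features with Benjamini-Hochberg adjustment at 0.05. On simulated course means it recovered 34 of 100 features changed by 1 (log2) and 80 of 100 changed by 3, with 10 false calls. The members and gene lists were chosen with earlier results of these data known. Named genes were all members, the 5 closest to CASP10, and called or lowest-p genes of each list. Alternatives covered wide arrays, single arrays, centring, days, probes, turned signs, left-out courses and the course as a block. Same-course days 2 and 4 correlated from -0.17 to 0.63 in their deviations, which did not establish pairing. No sequences are printed.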

Additional observations from a re-analysis of the deposited data

Results flagged for a closer look

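CASP8 had opposite signs in KMS12 and in both lymphoma lines on every array, as CASP10 and FAS had in KMS12 and on the arrays labelled OCI-Ly7, and these differences were not tested. Such splits were looked for between all pairs of lines for each of the 9 genes. The share of all features split in the same way is not given here, so how rare these splits are is not known. The medians of all 8 KMS12 arrays were below 0, and those of the arrays labelled OCI-Ly7 were above 0 (0.213 and 0.073). CASP10 averaged -0.50 ± 0.24 in KMS12 (SD, n = 8 arrays) and 1.77 ± 0.39 on the arrays labelled OCI-Ly7 (n = 2), a difference of -2.27. CASP8 averaged -0.17 ± 0.09 in KMS12, against 0.32 ± 0.05 on the arrays labelled OCI-Ly7 (difference -0.50) and 0.52 ± 0.30 in OCI-Ly19 (difference -0.69). FAS averaged 0.18 ± 0.05 in KMS12 and -0.60 ± 0.49 on the arrays labelled OCI-Ly7, a difference of 0.78. FAS also had opposite signs in the lymphoma lines, with -0.60 ± 0.49 on the arrays labelled OCI-Ly7 and 0.21 ± 0.07 in OCI-Ly19, a difference of -0.80. The arrays of a line are days of 1 or 2 courses, so the SDs describe days rather than separate cultures.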

How the results depend on the processing

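Calls depended on the wide arrays and on the unit of the fit. For the myeloma response, all arrays as course means gave 0 called features, and single arrays without the wide ones gave 442 (1130 in SKMM1). The following settings were chosen after seeing the data. Leaving out a course as well gave 578 without SKMM1 repeat 1, 790 without SKMM1 repeat 3, 17 without H929 repeat 1, 562 without H929 repeat 2, 213 without H929 shCasp10-3, 0 without KMS12 shCasp10-2 and 9 without KMS12 shCasp10-3. Subtracting array medians gave 579, and single probes gave 891. CASP10 kept its direction in every setting run. It was called at -0.28 (single arrays without the wide ones), at -0.31, -0.30 and -0.29 without SKMM1 repeat 3, H929 repeat 2 or H929 shCasp10-3, and at -0.29 with medians subtracted. With single probes in that fit, 4 of its 6 probes were called. The median of the 6 probe estimates was -0.46, a value that was not itself tested. With all arrays, leaving out each course gave -0.72 to -0.45.

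Lymphoma minus myeloma gave 0 called features with all arrays, 206 without the wide ones, 32 with SKMM1 repeat 2 turned, 25 with repeat 3 turned, and 0 to 50 with courses left out (50 without SKMM1 repeat 2).

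Without the wide arrays (course means, single arrays, and course means with medians subtracted), signs turned for CFLAR (0.06, 0.03 and 0.04), TNFRSF10A (0.17, 0.15 and 0.16), TNFRSF10B (0.05, 0.06 and 0.03) and FAS (0.15, 0.12 and 0.13). With SKMM1 repeat 2 turned, CFLAR was 0.25, TNFRSF10B 0.05 and FAS 0.32. With repeat 3 turned, BCLAF1 was -0.23. With medians subtracted from all arrays TNFRSF10B was 0.02 and FAS 0.10. FAS was 0.01 over all days and 0.00 by probes. Left-out courses gave -0.17 to 0.27 for BCLAF1, -0.25 to 0.22 for FAS, -0.14 to 0.01 for TNFRSF10B and -0.13 to 0.54 for the CASP10 hairpin difference. BCLAF1 probe 3 was 0.42 from single arrays without the wide ones, with the opposite sign from all arrays. None of these signs had passed a test with all arrays, and the cause was not tested.

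CASP10 on day 4 minus day 2 was -0.18 without the wide arrays. With the course as a replicate block it was 0.87 (limma, adjusted p = 0.299), and 0 features were called with the replicate block or without it.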
